A study of Mus musculus with 12 samples.

Results

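The collagen genes described here are every gene of the array annotation whose symbol reads Col, a number, a, a number. They were 42 of the 18193 genes on the array, measured by 82 probe sets. Of these, 40 had a probe set bright enough to enter the fit of 16432 genes. *Col24a1* and *Col6a5* did not pass the filter on low values, a log2 signal above 3.94 on at least 1 array, and read between 2.51 and 3.35 on all 12 arrays. By the type of assembly their protein is known for, 11 genes encode fibrillar collagens (10 in the fit), 6 encode the chains of basement membrane collagen IV (6 in the fit) and 25 encode other collagens (24 in the fit).

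RNA came from 6 lines of mouse embryonic stem cells (ESCs) of a 129/B6 hybrid background, all *Ring1A*-/-; *Ring1B* fl/fl; *Rosa26*::CreERT2. Each line was measured on 1 array on day 2 of treatment with 800 nM 4-hydroxytamoxifen (OHT) for 24 h (OHT+) and on 1 array without treatment (OHT-), 12 arrays in all. OHT switches on the Cre recombinase, *Ring1B* is deleted, and any Ring1B made from then on comes from a transfected construct. All lines, OHT- cells included, lack *Ring1A*. The 3 mutant lines carry Ring1B with the amino acid change I53S (lines #1 and #4) or I53A (line #1), changes made to take away its ubiquitin ligase activity. The mock line carries an empty vector, and the 2 WT lines (#1 and #3) carry wild-type Ring1B. Constructs were 3xFlag-tagged and expressed from pCAG-IRES-Puro, a vector with a strong general promoter, and each line is 1 stable transfectant. No culture was measured more than once, so a p-value here measures the spread between lines. Cells were grown on irradiated mouse embryonic fibroblast (MEF) feeders or on gelatin, and the sources used here do not give which line was grown on which. RNA was taken from whole cultures, so more cells of a type and more RNA per cell cannot be told apart.

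Collagens are extracellular proteins in which 3 alpha chains wind into a triple helix. Fibrillar chains assemble into the fibrils of skin, bone, tendon and cartilage, collagen IV chains form the sheet-like network of basement membranes, and the remaining chains coat fibrils, anchor sheets to them or span the cell membrane. Fibroblasts are known for collagens I, III, V and VI, chondrocytes for collagens II, IX and XI, and the endoderm that surrounds the early embryo for collagen IV. Ring1B is a core subunit of Polycomb repressive complex 1 (PRC1), which places ubiquitin on histone H2A at developmental genes, many of them with CpG-rich promoters, and keeps them at a low level in ESCs.

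The first question was which collagen genes changed after OHT in the mutant lines, where the Ring1B that remains carries the amino acid change. There 7 of 40 collagen genes rose and 0 fell at an adjusted p under 0.05 (limma, Benjamini-Hochberg over all genes), a share of 17.5% higher. Of all 16432 genes, 4.91% were higher and 1.55% lower. The 7 genes were the fibrillar *Col11a1*, *Col2a1* and *Col27a1*, the basement membrane *Col4a1*, and *Col8a2*, *Col13a1* and *Col9a3* among the other collagens. The log2 change was over 0.5 in the mutant lines for 10 collagen genes, 25% against 8.16% of all genes. The median log2 change was 0.22 over the 40 collagen genes and -0.01 over all genes. On the values as deposited, which were not scaled to each other, the median of all genes was -0.07, -0.18 and -0.12 in I53S #1, I53S #4 and I53A #1 and -0.34 in the mock line, and the collagen median lay 0.24, 0.18, 0.20 and 0.39 above it. Leaving out 1 mutant or WT line leaves fewer residual degrees of freedom and ended calls: without I53S #1 only *Col8a2* was called, without I53S #4 only *Col11a1* and without I53A #1 none, while without either WT line, which does not enter this contrast, *Col27a1* and *Col4a1* were lost. The changes themselves stayed above 0 for all 7 genes, at 1.40 to 1.85 for *Col8a2*, 1.03 to 1.17 for *Col11a1* and 0.61 to 0.76 for *Col2a1* with 1 mutant line left out. With no block for the line, 2 of the 7 were called, *Col11a1* and *Col8a2*. With the brightest probe set per gene 8 collagen genes were called, *Col5a1*, *Col6a2* and *Col8a1* among them but not *Col27a1* or *Col9a3*.

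**Figure D1:**
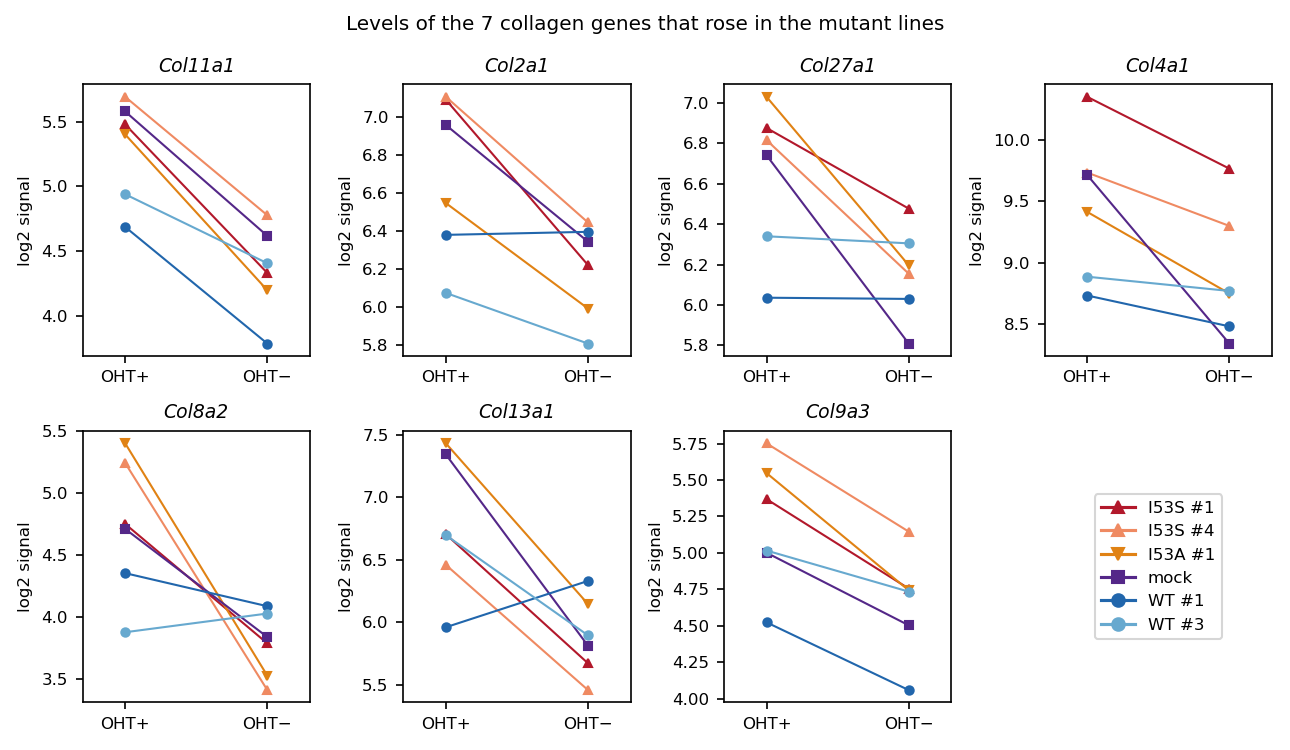
Log2 signal (vertical axis, a scale of its own in each panel) of the 7 collagen genes that rose in the mutant lines, in OHT+ cells (left) and OHT- cells (right) of 6 ESC lines. Each line joins the 2 arrays of 1 ESC line. In all 7 panels the 3 mutant lines and the mock line are higher in OHT+ cells, and *Col11a1*, *Col4a1* and *Col9a3* are higher in OHT+ cells of both WT lines too, as is *Col27a1* by 0.01 and 0.03.

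The stretch of 250 bases before the start site is shown for 4 of the genes that rose and for *Col3a1* and *Col5a1*, the uncalled fibrillar genes with the fewest and the most CpG, because PRC1 in ESCs is best known at promoters rich in CpG, a C followed by a G on the same strand. The sequences are those of RefSeq (GRCm38.p6), written 5′ to 3′ on the strand of the gene, with every CpG in capitals. They lie at chr4:126286544-126286793 (+ strand) for *Col8a2*, chr3:114030290-114030539 (+) for *Col11a1*, chr10:61979109-61979358 (-) for *Col13a1*, chr8:11312827-11313076 (-) for *Col4a1*, chr1:45311288-45311537 (+) for *Col3a1* and chr2:27886175-27886424 (+) for *Col5a1*.
Col8a2: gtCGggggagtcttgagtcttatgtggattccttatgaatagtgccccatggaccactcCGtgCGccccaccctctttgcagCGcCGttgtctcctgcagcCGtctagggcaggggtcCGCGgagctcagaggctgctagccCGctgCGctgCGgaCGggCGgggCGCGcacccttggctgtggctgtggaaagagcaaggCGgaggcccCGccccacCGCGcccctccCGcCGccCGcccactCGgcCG
Col11a1: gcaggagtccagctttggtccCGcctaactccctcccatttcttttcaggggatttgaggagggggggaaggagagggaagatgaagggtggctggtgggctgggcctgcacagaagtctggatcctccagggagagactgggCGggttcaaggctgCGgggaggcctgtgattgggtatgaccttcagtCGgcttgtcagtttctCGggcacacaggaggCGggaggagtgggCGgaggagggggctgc
Col13a1: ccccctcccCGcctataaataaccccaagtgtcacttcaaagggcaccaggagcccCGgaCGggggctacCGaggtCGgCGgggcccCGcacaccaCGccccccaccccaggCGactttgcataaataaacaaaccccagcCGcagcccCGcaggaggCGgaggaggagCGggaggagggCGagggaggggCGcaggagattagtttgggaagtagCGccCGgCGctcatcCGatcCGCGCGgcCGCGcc
Col4a1: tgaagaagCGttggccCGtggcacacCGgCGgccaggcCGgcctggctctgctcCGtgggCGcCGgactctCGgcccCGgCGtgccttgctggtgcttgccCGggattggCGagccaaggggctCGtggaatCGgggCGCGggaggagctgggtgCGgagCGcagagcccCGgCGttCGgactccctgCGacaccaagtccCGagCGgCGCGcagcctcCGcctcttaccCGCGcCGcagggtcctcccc
Col3a1: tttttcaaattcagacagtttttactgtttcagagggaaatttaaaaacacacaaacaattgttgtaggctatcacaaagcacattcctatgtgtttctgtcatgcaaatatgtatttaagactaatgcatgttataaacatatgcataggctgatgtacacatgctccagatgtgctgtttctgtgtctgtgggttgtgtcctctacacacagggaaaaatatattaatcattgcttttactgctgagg
Col5a1: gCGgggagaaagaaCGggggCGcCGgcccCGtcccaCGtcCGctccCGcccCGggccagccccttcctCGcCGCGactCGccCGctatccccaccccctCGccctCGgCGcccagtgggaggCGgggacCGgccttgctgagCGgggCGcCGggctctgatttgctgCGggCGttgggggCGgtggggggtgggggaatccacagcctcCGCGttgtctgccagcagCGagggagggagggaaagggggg
These stretches held 24 CpG for *Col8a2*, 7 for *Col11a1*, 24 for *Col13a1*, 31 for *Col4a1*, 0 for *Col3a1* and 28 for *Col5a1*.

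*Col8a2*, which encodes a chain of collagen VIII, a short-chain collagen that forms the hexagonal sheets of Descemet's membrane in the cornea, changed most. Its log2 signal was 4.75, 5.25 and 5.40 in OHT+ cells of I53S #1, I53S #4 and I53A #1, against 3.79, 3.41 and 3.53 in their OHT- cells. In the mock line it was 4.71 in OHT+ and 3.84 in OHT- cells. In the WT lines it was 4.36 and 3.88 in OHT+ cells of #1 and #3, against 4.09 and 4.03 in OHT- cells. The OHT+ arrays of the 3 mutant lines and the mock line were above all 8 other arrays, and the change was largest in I53S #4 and I53A #1. The log2 change was 1.56 (SE 0.21, adjusted p = 0.01628) in the mutant lines and 0.87 (SE 0.36, adjusted p = 0.2539) in the mock line. In WT lines it was 0.06 (SE 0.25, adjusted p = 0.9787). The paralog *Col8a1*, whose chain belongs to the same collagen, changed by 0.35, 0.15 and 0.20 in I53S #1, I53S #4 and I53A #1. Its change was 0.26 in the mock line and 0.15 and -0.20 in WT #1 and #3, and it did not pass the test (mutant lines, adjusted p = 0.2644). The brightest of its 3 probe sets had a mean change of 0.57 in the mutant and 0.19 in the WT lines. The other probe sets had 0.10 and 0.02 in the mutant lines. With the brightest one alone, or with a filter on the mean signal, *Col8a1* was called in the mutant lines.

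*Col11a1*, the main chain of collagen XI, which sits within the collagen II fibrils of cartilage and is known to set their width, read 5.48, 5.69 and 5.40 in OHT+ cells of I53S #1, I53S #4 and I53A #1, against 4.33, 4.78 and 4.2 in their OHT- cells. It read 5.58 in OHT+ and 4.62 in OHT- cells of the mock line, and 4.69 and 4.94 in OHT+ cells of WT #1 and #3, against 3.79 and 4.41 in their OHT- cells. Every line was higher in OHT+ cells, the WT lines included. In the fit *Col11a1* changed by 1.09 (SE 0.12, adjusted p = 0.009426) in the mutant lines, 0.96 (SE 0.20, adjusted p = 0.08431) in the mock line and 0.72 (SE 0.14, adjusted p = 0.476) in the WT lines. Both of its probe sets had the same mean change in the mutant lines, 1.09 each.

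*Col2a1*, the collagen of cartilage fibrils, read 7.09, 7.10 and 6.55 in OHT+ cells of I53S #1, I53S #4 and I53A #1, against 6.22, 6.44 and 5.99 in their OHT- cells. The mock line read 6.96 in OHT+ and 6.34 in OHT- cells, and WT #1 and #3 read 6.38 and 6.07 in OHT+, against 6.4 and 5.81 in OHT- cells. In OHT+ cells each mutant line was above both WT lines, I53A #1 by the least, while in OHT- cells the levels of mutant and WT lines overlapped. The change within a line was larger in each mutant line than in either WT line. The log2 change was 0.69 (SE 0.11, adjusted p = 0.02417) in the mutant lines and 0.13 (SE 0.13, adjusted p = 0.8941) in the WT lines.

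*Col27a1*, a fibrillar collagen of developing cartilage, read 6.88, 6.82 and 7.03 in OHT+ cells of the mutant lines in the same order, against 6.48, 6.16 and 6.20 in OHT- cells. The mock line read 6.74 in OHT+ and 5.81 in OHT- cells. WT #1 and #3 read 6.04 and 6.34 in OHT+, against 6.03 and 6.31 in OHT- cells. In the mean of its 2 probe sets the WT lines thus stayed within 0.04 of their untreated level. In the fit its change was 0.63 (SE 0.11, adjusted p = 0.03157) in the mutant lines, 0.93 (SE 0.19, adjusted p = 0.08179) in the mock line and 0.02 (SE 0.14, adjusted p = 0.9882) in the WT lines. Its 2 probe sets disagreed in size, with mean changes of 0.96 and 0.30 in the mutant lines, and with the brighter one alone the gene was not called (adjusted p = 0.1751; 0.004895 to 0.1751 over the 13 alternatives).

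*Col13a1*, which encodes a collagen that spans the cell membrane at sites of adhesion, read 6.71, 6.46 and 7.43 in OHT+ cells of I53S #1, I53S #4 and I53A #1, against 5.67, 5.46 and 6.15 in their OHT- cells. It read 7.34 in OHT+ and 5.81 in OHT- cells of the mock line. WT #1 and #3 read 5.96 and 6.70 in OHT+, against 6.33 and 5.90 in OHT- cells, so the WT lines moved in opposite directions. For *Col13a1* the fitted log2 change was 1.11 (SE 0.22, adjusted p = 0.04532) in the mutant lines, 1.53 (SE 0.38, adjusted p = 0.1171) in the mock line and 0.21 (SE 0.27, adjusted p = 0.9142) in the WT lines. On the values as deposited *Col13a1* was just outside the threshold in the mutant lines (adjusted p = 0.0541; 0.001697 to 0.1773 over the 13 alternatives).

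*Col9a3*, a chain of collagen IX, which coats the surface of collagen II fibrils, read 5.37, 5.75 and 5.55 in OHT+ cells of I53S #1, I53S #4 and I53A #1, against 4.76, 5.15 and 4.74 in their OHT- cells. The mock line read 5.0 in OHT+ and 4.50 in OHT- cells, and WT #1 and #3 read 4.52 and 5.02 in OHT+, against 4.06 and 4.73 in OHT- cells. All 6 lines were higher in OHT+ cells. The log2 change was 0.68 (SE 0.10, adjusted p = 0.01861) in the mutant lines and 0.37 (SE 0.12, adjusted p = 0.5703) in the WT lines. One probe set carried it, with a mean change of 1.16 in the mutant lines against 0.19 for the brighter probe set, and with the brighter one alone the call was lost (adjusted p = 0.4989; 0.01579 to 0.4989 over the 13 alternatives). The other 2 chains of collagen IX, *Col9a1* and *Col9a2*, had log2 changes of 0.04 and 0.14 in the mutant lines and did not pass the test.

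*Col4a1* and *Col4a2* encode the 2 chains of the most widespread form of collagen IV and start back to back. Their RefSeq windows of 300 bases, on the - and the + strand, share 78 bases. *Col4a1* read 10.35, 9.74 and 9.42 in OHT+ cells of I53S #1, I53S #4 and I53A #1, against 9.77, 9.30 and 8.75 in their OHT- cells. It read 9.72 in OHT+ and 8.34 in OHT- cells of the mock line, and 8.74 and 8.89 in OHT+ cells of WT #1 and #3, against 8.48 and 8.77 in OHT- cells. The mock line was the lowest of the 6 before OHT and moved most, and all 6 lines were higher in OHT+ cells. The log2 change was 0.56 (SE 0.09, adjusted p = 0.02856) in the mutant lines, 1.37 (SE 0.16, adjusted p = 0.03663) in the mock line and 0.18 (SE 0.11, adjusted p = 0.7906) in the WT lines. *Col4a1* was not called in the mutant lines on the values as deposited (adjusted p = 0.06273) or with no block for the line (adjusted p = 0.3935). With trended and robust priors it was called there (adjusted p = 0.0003126).

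*Col4a2* read 9.71, 9.34 and 9.17 in OHT+ cells of I53S #1, I53S #4 and I53A #1, against 9.16, 9.19 and 8.50 in OHT- cells, and 9.19 in OHT+ and 8.50 in OHT- cells of the mock line. WT #1 and #3 read 8.41 and 8.55 in OHT+, against 8.0 and 8.47 in OHT- cells. It too was higher in OHT+ cells of all 6 lines, but did not pass the test, with a log2 change of 0.46 (SE 0.14, adjusted p = 0.1143) in the mutant lines and 0.69 (SE 0.24, adjusted p = 0.1957) in the mock line. *Col4a5*, an X-linked chain of kidney and other basement membranes, read 5.83, 5.56 and 4.84 in OHT+ cells of the mutant lines, against 4.71, 5.24 and 4.46 in OHT- cells, 6.61 in OHT+ and 6.05 in OHT- cells of the mock line, and 4.52 and 4.71 in OHT+ cells of WT #1 and #3, against 4.72 and 4.72 in OHT- cells. I53S #1 had the largest change of *Col4a5*, 1.12, and the change in the mutant lines was 0.61 (SE 0.17, adjusted p = 0.1063).

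The other 3 chains of collagen IV passed no test. *Col4a6*, the X-linked partner of *Col4a5*, read 3.95, 4.01 and 3.84 in OHT+ cells of the mutant lines, against 4.03, 3.64 and 3.89 in OHT- cells, 4.11 in OHT+ and 4.50 in OHT- cells of the mock line, and 4.19 and 3.34 in OHT+ cells of WT #1 and #3, against 4.54 and 3.90 in OHT- cells. *Col4a4*, a chain of the kidney filter, read 3.33, 3.26 and 3.00 in OHT+ cells of the mutant lines, against 3.78, 3.18 and 3.22 in OHT- cells, 3.11 in OHT+ and 3.49 in OHT- cells of the mock line, and 3.20 and 3.20 in OHT+ cells of WT #1 and #3, against 3.89 and 3.81 in OHT- cells. Most of these signals lie near the filter value of 3.94. The log2 changes in the mutant lines were 0.08 for *Col4a6*, -0.20 for *Col4a4* and -0.59 for *Col4a3*.

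**Figure D2:**
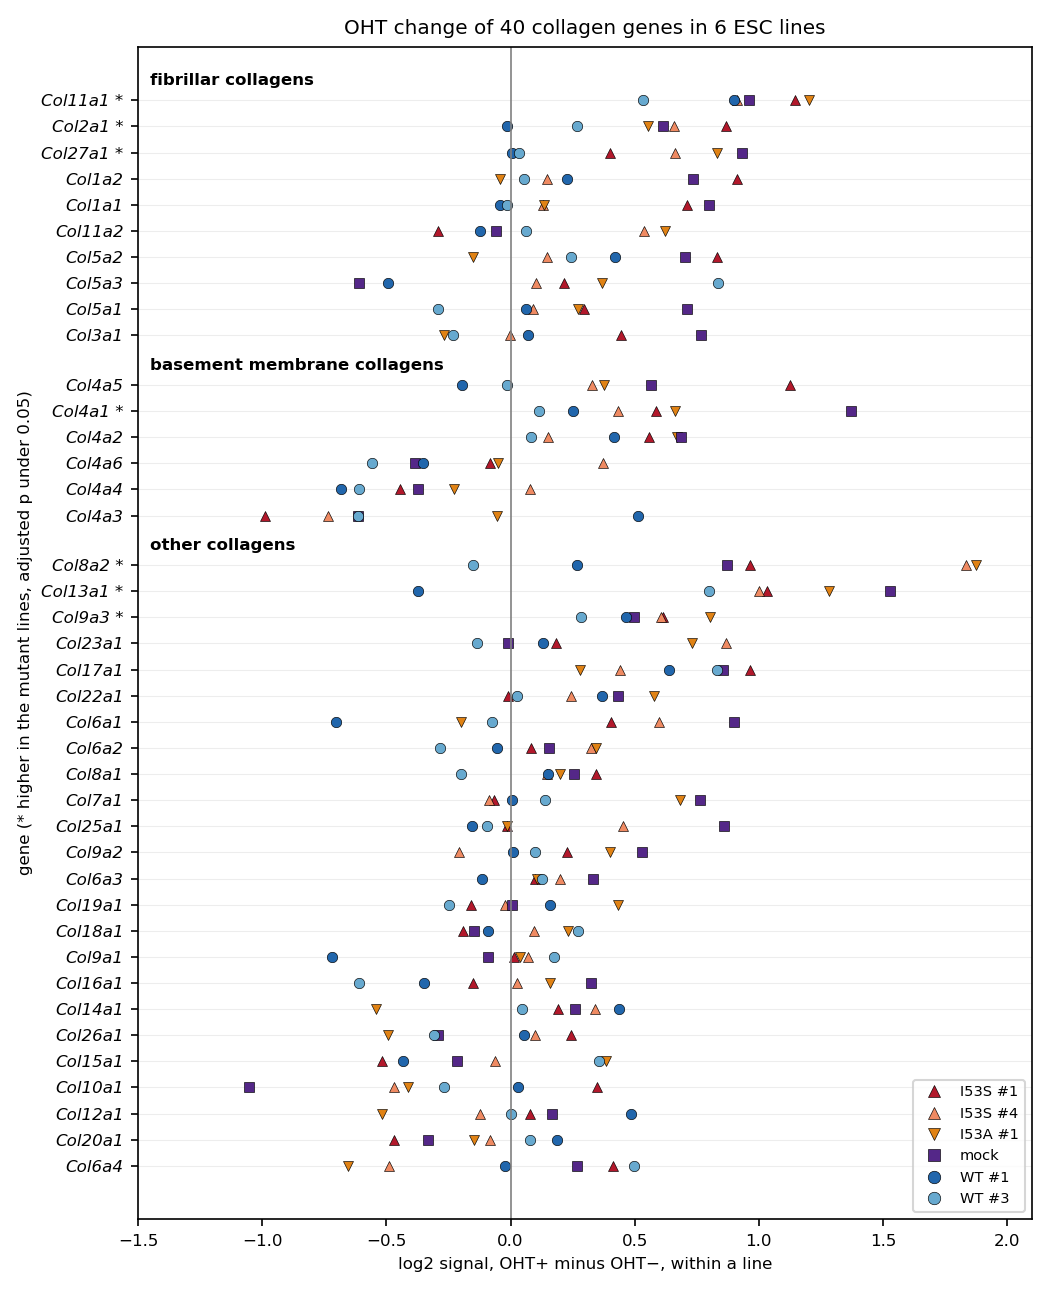
Log2 signal in OHT+ cells minus that in OHT- cells of the same line (horizontal axis) for the 40 collagen genes in the fit, grouped by class and ordered within a class by the mean of the 3 mutant lines. Each point is 1 ESC line, and an asterisk marks the 7 genes that rose in the mutant lines. *Col8a2* stands furthest right, with the 3 mutant lines at 0.96, 1.83 and 1.88 and the WT lines at 0.27 and -0.15.

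The chains of collagens I, III and V, the fibrillar collagens that fibroblasts are known for, are described as a set, a grouping of 6 genes made after their values had been seen. *Col1a2*, the second chain of collagen I, read 10.50, 9.25 and 8.55 in OHT+ cells of I53S #1, I53S #4 and I53A #1, against 9.59, 9.10 and 8.6 in OHT- cells. The mock line read 10.28 in OHT+ and 9.55 in OHT- cells, and WT #1 and #3 read 8.35 and 8.88 in OHT+, against 8.12 and 8.83 in OHT- cells. The changes were thus large in I53S #1 and the mock line, at 0.91 and 0.73, and between -0.04 and 0.23 in the other 4 lines. *Col1a1*, its partner chain, changed by 0.71, 0.13 and 0.14 in I53S #1, I53S #4 and I53A #1, by 0.80 in the mock line and by -0.04 and -0.01 in WT #1 and #3. *Col5a2* of collagen V changed by 0.83, 0.15 and -0.15 in the mutant lines, by 0.70 in the mock line and by 0.42 and 0.24 in WT #1 and #3. None of the 6 genes passed the test in the mutant lines, where the log2 changes of *Col1a1*, *Col1a2* and *Col5a2* were 0.33, 0.34 and 0.28 (SE 0.14, 0.19 and 0.19).

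*Col3a1*, the single chain of collagen III, read 6.93, 6.19 and 6.09 in OHT+ cells of I53S #1, I53S #4 and I53A #1, against 6.48, 6.19 and 6.35 in OHT- cells. It read 7.34 in OHT+ and 6.57 in OHT- cells of the mock line, and 5.03 and 5.75 in OHT+ cells of WT #1 and #3, against 4.96 and 5.99 in OHT- cells. Its change, 0.06 (SE 0.16, adjusted p = 0.8563) in the mutant lines, was above 0.4 in I53S #1 and the mock line alone. *Col5a1* changed by 0.30, 0.09 and 0.27 in mutant lines, 0.71 in the mock line and 0.06 and -0.29 in WT #1 and #3. Its 3 probe sets disagreed, with mean changes of 0.89, 0.03 and -0.26 in the mutant lines. The first of these was the brightest, and with it alone *Col5a1* was called in the mutant lines. *Col5a3*, a minor chain of collagen V, ran against the rest, at 0.22, 0.10 and 0.37 in mutant lines, -0.61 in the mock line and -0.49 and 0.83 in WT #1 and #3.

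Among the other collagens, the 4 membrane-spanning genes (*Col13a1*, *Col17a1*, *Col23a1* and *Col25a1*) had the highest median change of any class of more than 1 gene in the mutant lines, 0.58, with 1 of 4 called. *Col17a1*, the collagen of the junctions that fasten skin cells to their basement membrane, read 4.75, 4.83 and 4.88 in OHT+ cells of the mutant lines, against 3.79, 4.39 and 4.60 in OHT- cells, 4.76 in OHT+ and 3.90 in OHT- cells of the mock line, and 4.66 and 4.75 in OHT+ cells of WT #1 and #3, against 4.03 and 3.92 in OHT- cells. After OHT all 6 lines reached nearly one level, and the change in the WT lines, 0.73 (SE 0.18, adjusted p = 0.5276), was no smaller than that in the mutant lines, 0.56 (SE 0.15, adjusted p = 0.09128). *Col23a1* changed by 0.18, 0.87 and 0.73 in I53S #1, I53S #4 and I53A #1, by -0.01 in the mock line and by 0.13 and -0.14 in WT #1 and #3 (mutant lines, adjusted p = 0.08548). *Col25a1*, a collagen of neurons, read 4.42, 5.25 and 4.93 in OHT+ cells of the mutant lines, against 4.43, 4.79 and 4.95 in OHT- cells, 5.21 in OHT+ and 4.35 in OHT- cells of the mock line, and 4.33 and 4.39 in OHT+ cells of WT #1 and #3, against 4.48 and 4.49 in OHT- cells, so that the mock line stood out.

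The 9 measured collagens that decorate fibrils (FACIT collagens) had a median change of 0.04 in the mutant lines, with *Col9a3* called. *Col16a1*, one of them, read 6.81, 6.62 and 7.01 in OHT+ cells of the mutant lines, against 6.97, 6.59 and 6.85 in OHT- cells, 7.12 in OHT+ and 6.79 in OHT- cells of the mock line, and 6.49 and 6.34 in OHT+ cells of WT #1 and #3, against 6.84 and 6.95 in OHT- cells. It was lower in OHT+ cells of both WT lines and of I53S #1. *Col14a1*, which binds collagen I fibrils, read 4.14, 3.93 and 3.60 in OHT+ cells of the mutant lines, against 3.95, 3.59 and 4.14 in OHT- cells, 3.79 in OHT+ and 3.52 in OHT- cells of the mock line, and 3.79 and 3.47 in OHT+ cells of WT #1 and #3, against 3.35 and 3.42 in OHT- cells. I53A #1 went the other way from the I53S lines.

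The 4 measured chains of collagen VI, the beaded filament around fibroblasts and muscle fibres, had a median change of 0.19 in the mutant lines, with 0 called. *Col6a1* read 5.67, 5.43 and 4.98 in OHT+ cells of I53S #1, I53S #4 and I53A #1, against 5.27, 4.83 and 5.18 in OHT- cells, 6.07 in OHT+ and 5.17 in OHT- cells of the mock line, and 3.72 and 4.71 in OHT+ cells of WT #1 and #3, against 4.42 and 4.79 in OHT- cells. *Col10a1*, the collagen of hypertrophic cartilage, read 4.14, 3.88 and 3.54 in OHT+ cells of the mutant lines, against 3.79, 4.35 and 3.96 in OHT- cells, 3.04 in OHT+ and 4.09 in OHT- cells of the mock line, and 3.65 and 3.88 in OHT+ cells of WT #1 and #3, against 3.62 and 4.15 in OHT- cells. It was the collagen gene with the lowest change in the mock line, -1.05 (SE 0.32, adjusted p = 0.158), and did not pass the test. The multiplexins *Col15a1* and *Col18a1*, whose ends yield the endostatins, had log2 changes of -0.07 and 0.05 in the mutant lines, and *Col7a1* of the anchoring fibrils had 0.18.

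In the mock line, which has no Ring1B after OHT, 1 of 40 collagen genes rose and 0 fell, a share of 2.5% higher. Of all genes, 1.29% were higher and 0.383% lower. The gene was *Col4a1*, with a log2 change of 1.37 (SE 0.16, adjusted p = 0.03663), and the call was lost when any mutant or WT line was left out (0.06972 to 0.08297). At an unadjusted p under 0.05 were 15 collagen genes, 37.5% against 19.9% of all genes, and 14 of these 15 were higher and 1, *Col10a1*, lower in OHT+ cells. The class has 1 line, so its spread is borrowed from the other lines. The log2 change was over 0.5 for 18 collagen genes (45% against 14.6%). The median over collagen genes was 0.38 in the mock line, with 0.72 for fibrillar, 0.10 for basement membrane and 0.27 for other collagens. On the values as deposited, where the median of all genes was -0.34, the 3 class medians were 0.35, -0.15 and -0.04.

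In the WT lines, 0 of 40 collagen genes and 0% of all genes were called in either direction, and 6 collagen genes had an unadjusted p under 0.05 (15% against 7.61% of all genes). These were *Col11a1*, *Col17a1* and *Col9a3*, higher in OHT+ cells of both WT lines, and *Col4a4*, *Col4a6* and *Col16a1*, lower in both. Their log2 changes were 0.72, 0.73 and 0.37 for the genes that were higher, and -0.65, -0.46 and -0.48 for those that were lower, with adjusted p between 0.476 and 0.5816 (limma). The mean log2 change of the WT lines was over 0.5 for 2 collagen genes (5% against 3.26%). The median over the 40 genes was 0.02 in WT #1 and 0.04 in WT #3.

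Whether the mutant and WT lines differed in their change was then tested directly. No collagen gene and 0% of all genes passed for mutant minus WT lines, and 9 collagen genes had an unadjusted p under 0.05 (22.5% against 12.6% of all genes). The largest difference was that of *Col8a2*, 1.5 (SE 0.32, adjusted p = 0.183). *Col13a1* differed by 0.89 (SE 0.35, adjusted p = 0.3816), *Col4a5* by 0.72 (SE 0.28, adjusted p = 0.3782), *Col27a1* by 0.61 (SE 0.17, adjusted p = 0.259) and *Col2a1* by 0.57 (SE 0.17, adjusted p = 0.2755). For *Col11a1*, which was also higher in OHT+ cells of the WT lines, the difference was 0.37 (SE 0.18, adjusted p = 0.478), and for *Col9a3* it was 0.30 (SE 0.15, adjusted p = 0.4877). The dimmer of the *Col9a3* probe sets in the fit had mean changes of 1.16 in the mutant and 0.29 in the WT lines. The brighter one had 0.19 and 0.455, the larger change being that of the WT lines. For the brighter probe set of *Col27a1* the mean changes were 0.30 in the mutant and 0.25 in the WT lines. Taken line by line, 16 of 40 collagen genes (40%) had a change in every mutant line above that in every WT line, as did 16.1% of all genes. On the values as deposited this held for 7 collagen genes (17.5% against 8.64% of all genes), which included *Col8a2*, *Col27a1* and *Col2a1* but not *Col11a1*, *Col13a1*, *Col4a1* or *Col9a3*. A single gene, *Col20a1*, had it below (2.5% against 15%; 3 genes, 7.5% against 25.6%, as deposited), with changes of -0.47, -0.08 and -0.15 in the mutant lines and 0.19 and 0.08 in the WT lines. The change was above 0 in all 3 mutant lines and the mock line for 15 collagen genes (37.5% against 19.6%), and in all 6 lines for 6 of them, *Col11a1*, *Col17a1*, *Col27a1*, *Col4a1*, *Col4a2* and *Col9a3* (15% against 7.97%).

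For mock minus WT lines, 0 collagen genes and 0% of all genes passed, with 9 collagen genes at an unadjusted p under 0.05 (22.5% against 14.4%). The largest were *Col13a1*, 1.31 (SE 0.47, adjusted p = 0.3027), and *Col6a1*, 1.29 (SE 0.41, adjusted p = 0.2722), followed by *Col4a1*, 1.19 (SE 0.20, adjusted p = 0.1365), *Col25a1*, 0.98 (SE 0.26, adjusted p = 0.2144), and *Col27a1*, 0.91 (SE 0.23, adjusted p = 0.2058). Mock minus mutant lines gave 0 collagen genes and 0% of all genes, and 2 collagen genes at an unadjusted p under 0.05 (5% against 8.05%), *Col4a1* with 0.81 (SE 0.19, adjusted p = 0.5017) and *Col25a1* with 0.72 (SE 0.25, adjusted p = 0.5722). These comparisons share their lines, so the counts are not independent of each other.

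Before OHT, no collagen gene and 0% of all genes passed for mutant minus WT lines, and 5 collagen genes had an unadjusted p under 0.05 (12.5% against 5.25% of all genes). Of these *Col3a1*, 0.87 (SE 0.30, adjusted p = 0.9343), *Col4a2*, 0.72 (SE 0.27, adjusted p = 0.9427), *Col14a1*, 0.51 (SE 0.20, adjusted p = 0.9453), and *Col6a1*, 0.49 (SE 0.20, adjusted p = 0.9491), were higher in the mutant lines. *Col8a2* was lower, -0.48 (SE 0.17, adjusted p = 0.9424). Every mutant line was above both WT lines before OHT for 6 collagen genes (15% against 10.2% of all genes) and below both for 3 (7.5% against 10.2%). I53S #1 had the highest level of the 6 lines for 13 of the 40 collagen genes (16.8% of all genes had theirs there), and WT #1 had the lowest for 17 (17.8% of all genes). Of the 6 genes of collagens I, III and V, the mock line or I53S #1 was highest for 5 and WT #1 lowest for 5. The exception at the top was *Col5a3*, highest in WT #1. Outside this set, *Col8a1*, *Col6a3* and *Col12a1* were also highest in I53S #1, next highest in the mock line and lowest in WT #1.

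**Figure D3:**
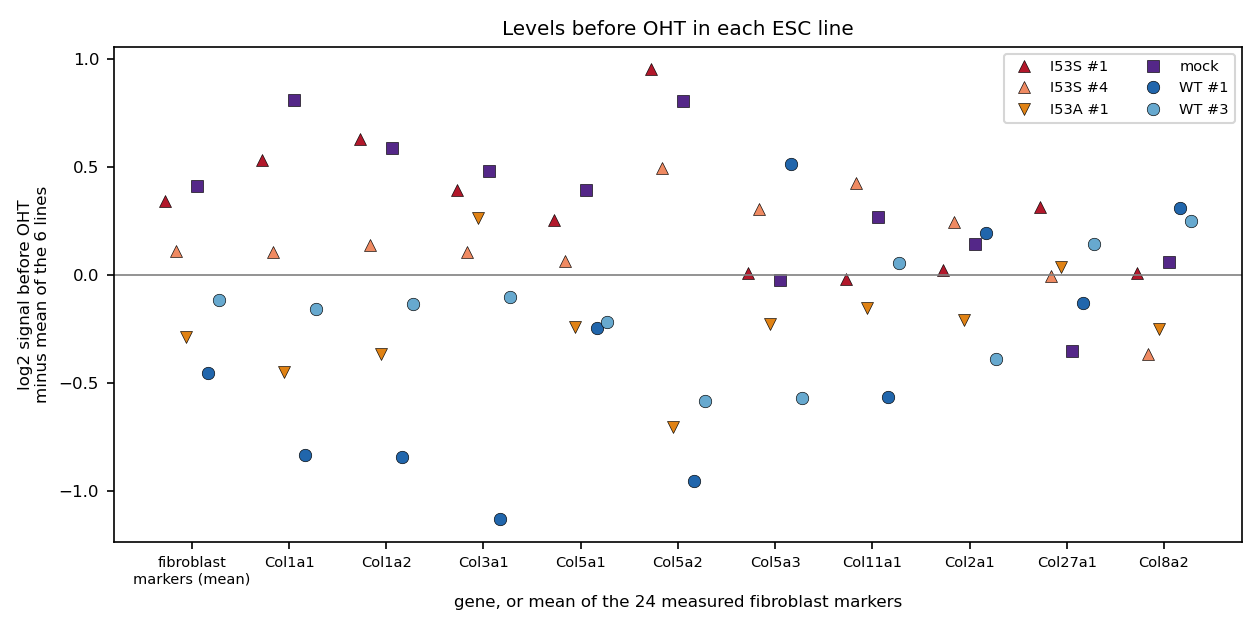
Log2 signal before OHT minus the mean of the 6 lines (vertical axis) for the mean of 24 fibroblast marker genes, the 6 genes of collagens I, III and V, and 4 of the genes that rose in the mutant lines. Each point is 1 ESC line. The mean of the fibroblast markers and *Col1a1*, *Col1a2*, *Col3a1*, *Col5a1* and *Col5a2* are high in I53S #1 and the mock line. They are lowest in WT #1, as is *Col11a1*. Otherwise *Col11a1*, *Col2a1*, *Col27a1* and *Col8a2* follow other orders.

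Fibroblast markers were measured beside the collagens, since the cultures could hold MEF feeders. No collagen gene is on this list, of which 24 of 27 genes were measured. Of its defining markers *Fap* and *Lum* were below the filter on every array, while *Thy1*, *Pdgfrb*, *Dcn*, *Postn*, *Prrx1* and *Twist2* were measured. The summed linear signal of the list was 13358, 8159 and 4820 in OHT+ cells of I53S #1, I53S #4 and I53A #1, against 9183, 7698 and 5024 in their OHT- cells. It was 12882 in OHT+ and 9412 in OHT- cells of the mock line, and 5213 and 6061 in OHT+ cells of WT #1 and #3, against 5074 and 5732 in OHT- cells. The sums were highest, and changed most, in I53S #1 and the mock line. Their median log2 change was 0.65, 0.20 and 0.22 in I53S #1, I53S #4 and I53A #1, 0.64 in the mock line and 0.03 and 0.13 in WT #1 and #3. In I53A #1 the sum was thus lower in OHT+ cells while the median change was above 0. A linear sum weighs bright genes most, and *Vim* and *Fn1*, the brightest of the list in I53A #1, changed by -0.41 and -0.20. The change was above 0 for 14 of the 24 markers in I53A #1. The sum of the 6 measured defining markers was 411 in OHT+ and 366 in OHT- cells there, but their mean log2 signal was 5.72 and 5.78. Of these 6, *Thy1* changed most upward in I53A #1, by 0.75. *Pdgfrb*, *Postn* and *Prrx1* changed by 0.19, 0.25 and 0.23, and *Dcn* and *Twist2* by -0.72 and -1.03. The median of the 10 fibrillar collagens was 0.58, 0.15 and 0.32 in mutant lines, 0.72 in the mock line and 0.04 and 0.06 in the WT lines, and that of collagens I, III and V was 0.58, 0.12 and 0.05, 0.72, and 0.07 and 0.02 in the same order. The part of fibroblast RNA in these changes was not tested.

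The genes that rose in the mutant lines are set beside these marker changes line by line. The test calls genes whose change was alike in the 3 mutant lines, and the marker medians were not alike there. Genes that followed the markers were thus less likely to be called, so no conclusion about fibroblast RNA is drawn from this comparison. *Col27a1* changed by 0.40, 0.66 and 0.83 in I53S #1, I53S #4 and I53A #1 and by 0.93 in the mock line, *Col13a1* by 1.03, 1.00 and 1.28 and by 1.53, and *Col4a1* by 0.59, 0.43 and 0.66 and by 1.37. For these 3 genes the mock line, where the fibroblast marker median was 0.64, had the largest change of all 6 lines, and I53A #1, where it was 0.22, had the largest of the mutant lines. *Col8a2* changed by 0.96, 1.83 and 1.88 in the mutant lines and by 0.87 in the mock line, and so was larger in I53S #4 and I53A #1, with marker medians of 0.20 and 0.22, than in I53S #1 and the mock line. *Col11a1* changed by 1.15, 0.91 and 1.20 and by 0.96, and *Col9a3* by 0.62, 0.61 and 0.81 and by 0.50, both largest in I53A #1. *Col2a1* changed by 0.87, 0.66 and 0.55 and by 0.61, and was largest in I53S #1, where the marker median was 0.65. Of the fibroblast markers themselves, *Thy1* rose in the mutant lines, with a log2 change of 0.68 (SE 0.10, adjusted p = 0.01861). It also rose in the mock line, by 1.32 (SE 0.16, adjusted p = 0.03663). None of the other 23 was called, beside 4.91% (mutant) and 1.29% (mock) of all genes called higher. At an unadjusted p under 0.05 (limma) were 10 of the 24 markers for mutant lines, against 23.7% of all genes. The mock line had 9 of 24, against 19.9%. Changes above 0 were seen for 20 of the 24 markers (mutant) and 22 of the 24 (mock).

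**Figure D4:**
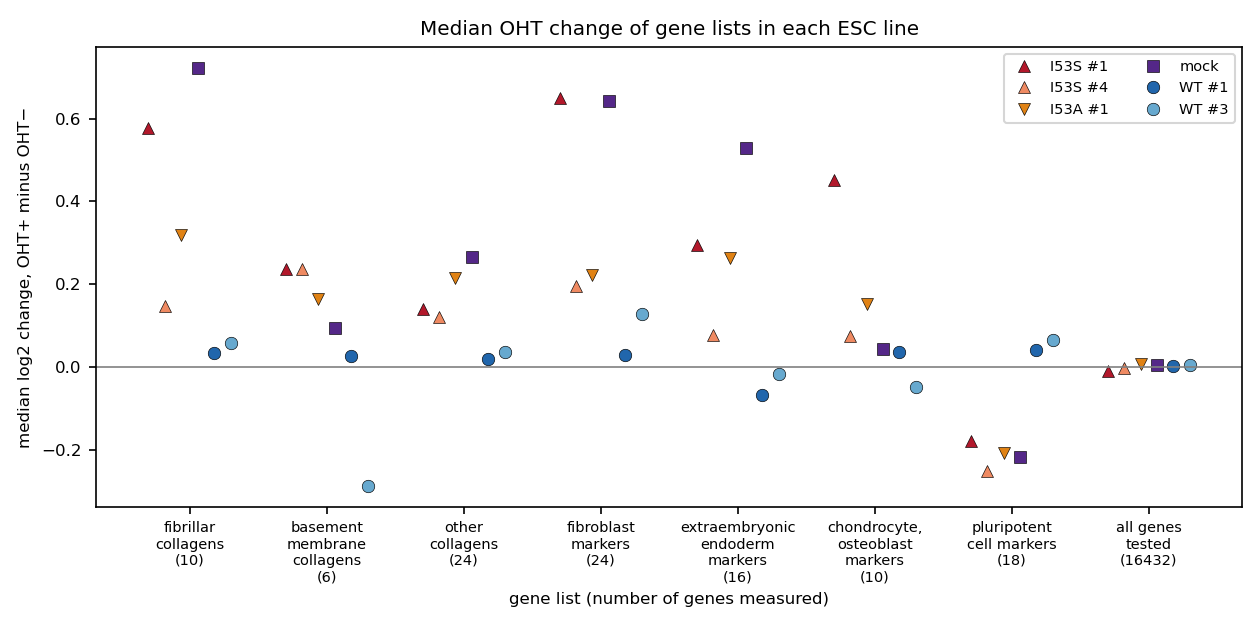
Median log2 change, OHT+ minus OHT- cells (vertical axis), of 3 collagen classes, 4 marker lists and all genes tested, with the number of genes measured below each name. Each point is 1 ESC line. The fibrillar collagens and the fibroblast markers are highest in I53S #1 (0.58 and 0.65) and the mock line (0.72 and 0.64), and the medians of all genes lie between -0.01 and 0.01.

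Markers of other cell types that make collagen were counted in the same way, beside 4.91% higher and 1.55% lower of all genes in the mutant lines and 1.29% higher and 0.383% lower in the mock line. Of 16 markers of extraembryonic endoderm, 2 rose in the mutant lines, *Amn*, a part of the endocytic receptor of the visceral endoderm, with 1.88 (SE 0.15, adjusted p = 0.006174), and *Gata6*, an endoderm transcription factor, with 0.52 (SE 0.09, adjusted p = 0.02973). The log2 change in the mutant lines was above 0 for 10 of these 16 markers, with a median of 0.155. In the mock line 3 rose, *Amn* with 2.07 (SE 0.25, adjusted p = 0.03663), *Foxa2* with 1.88 (SE 0.20, adjusted p = 0.0329) and *Gata6* with 1.80 (SE 0.15, adjusted p = 0.03219), and the median of the list was 0.53 there, against 0.30, 0.08 and 0.26 in the mutant lines and -0.07 and -0.02 in the WT lines. Of 10 measured markers of chondrocytes and osteoblasts, 2 rose in the mutant lines, both of cartilage matrix: *Comp* with 0.70 (SE 0.09, adjusted p = 0.01556) and *Acan*, which encodes the proteoglycan aggrecan, with 0.67 (SE 0.10, adjusted p = 0.02386). Of 10 endothelial markers 2 rose there, the receptor gene *Flt1* with 0.76 (SE 0.10, adjusted p = 0.01651) and the tight junction gene *Cldn5* with 0.69 (SE 0.10, adjusted p = 0.02036). In the mutant lines the log2 change was above 0 for 6 of the 10 endothelial markers, with a median of 0.25. It was above 0 for 8 of the 10 chondrocyte and osteoblast markers, with a median of 0.23. None of the markers on either list was called in the mock line. Of 18 pluripotent cell markers, 2 fell in the mutant lines, *Nr0b1* with -1.32 (SE 0.09, adjusted p = 0.005498) and *Eras* with -0.95 (SE 0.13, adjusted p = 0.01661), and 1 rose, *Klf4* with 0.55 (SE 0.10, adjusted p = 0.03538). *Nr0b1* and *Eras* also fell in the mock line, with -1.49 (SE 0.15, adjusted p = 0.0329) and -1.47 (SE 0.22, adjusted p = 0.04448). The part of these cell states in the collagen changes was not tested.

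Collagen chains need hydroxylases, a chaperone and processing proteases before they can form fibrils. Of 26 measured genes for collagen synthesis and processing, 5 rose in the mutant lines and 0 fell (4.91% of all genes were higher). *Tll1*, a protease that trims procollagen ends, had a log2 change of 0.97 (SE 0.13, adjusted p = 0.01707), *P4ha3*, a prolyl hydroxylase subunit, 0.90 (SE 0.17, adjusted p = 0.0387), *Adamts3*, a procollagen N-proteinase, 0.85 (SE 0.10, adjusted p = 0.01235), and *Serpinh1*, the collagen chaperone HSP47, 0.62 (SE 0.11, adjusted p = 0.03372). The fifth was *Lox*, the enzyme that crosslinks collagen fibrils, named after its value was seen, with 0.49 (SE 0.10, adjusted p = 0.04224). *Adamts3* was also higher in OHT+ cells of the WT lines, by 1.02 (SE 0.12, adjusted p = 0.4492). In the mock line 1 of 26 rose, *P4ha2*, another prolyl hydroxylase subunit, with 1.90 (SE 0.23, adjusted p = 0.03663) and a log2 change of 0.64 in the mutant lines that did not pass (adjusted p = 0.05132). The median of the list was 0.14, 0.19 and 0.20 in I53S #1, I53S #4 and I53A #1, 0.27 in the mock line and 0.06 and 0.00 in WT #1 and #3.

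The partners of collagen IV in basement membranes gave 2 of 17 measured genes higher in the mutant lines and 0 lower, beside 4.91% higher of all genes. The median log2 change of the 17 was 0.05 in the mutant lines, and -0.10 for mutant minus WT lines. The 2 genes were *Lama5*, a laminin chain, with 0.86 (SE 0.14, adjusted p = 0.02607), and *Pxdn*, the peroxidasin that crosslinks collagen IV, with 0.70 (SE 0.09, adjusted p = 0.01658). In the mock line *Pxdn* and *Lama5* had 0.99 (SE 0.16, adjusted p = 0.05432) and 0.98 (SE 0.24, adjusted p = 0.1117), and 0 of the 17 were called. Of 9 measured collagen receptors, with a median of 0.02, 1 rose in the mutant lines, *Itga1*, the integrin subunit that binds collagen IV, with 0.59 (SE 0.10, adjusted p = 0.02766). *Itga10*, an integrin subunit of chondrocytes, differed most between mock and mutant lines among the receptors, -1.26 (SE 0.25, adjusted p = 0.5017), and did not pass.

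Promoter windows of 300 bases (250 before and 50 after the start, RefSeq, GRCm38.p6) were on hand for 33 of the 42 collagen genes. Where a collagen gene had more than 1 window (*Col18a1*, *Col6a2* and *Col9a1*), the one with the most CpG was taken. No such choice was made among all windows, so collagen values are per gene and those of all windows are per window. The collagen windows held a median of 12 CpG, from 0 to 37, against 7 in all 32851 windows. Of the 7 genes that rose in the mutant lines 5 had a window, with 37 CpG for *Col4a1*, 32 for *Col8a2*, 29 for *Col13a1*, 18 for *Col27a1* and 9 for *Col11a1*. The 26 genes that were fitted and not called had a median of 12 CpG, from 0 to 34. *Col5a1*, with 34 CpG, and *Col4a2*, with 33, were as rich as the genes that rose, and were not called in the main fit. Both depended on the processing: *Col5a1* was called in the mutant lines with the brightest probe set per gene, and *Col4a2* with trended and robust priors. The motif GGGCGG, the core of the GC box, stood on either strand in 63.6% of the collagen genes and 35.7% of all windows, and TATAAA, the TATA box, in 15.2% and 13.6%. These are descriptions of sequence, and no binding was measured in these arrays.

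**Figure D5:**
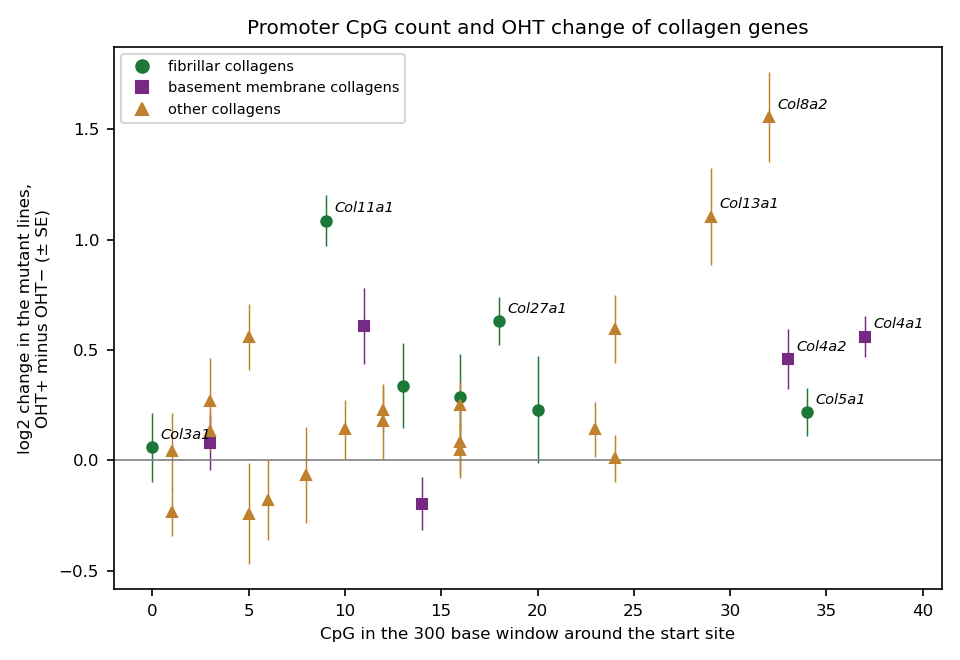
Number of CpG in the 300 base window around the start site (horizontal axis) against the log2 change in the mutant lines, OHT+ minus OHT- cells (vertical axis, bars are ± SE of the fit), for the 31 collagen genes that had a window and were in the fit. *Col8a2* and *Col13a1*, with 32 and 29 CpG, and *Col11a1*, with 9, stand highest, while *Col3a1*, with 0 CpG, and *Col5a1*, with 34, lie at 0.06 and 0.22.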

How the data were processed

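The deposited values are log2 signals of the authors' Affymetrix mouse genome arrays, with 45101 probe sets each. The submitters' processing notes name RMA and Affymetrix Expression Console, without versions, while the study's methods describe MAS5 signals and quantile normalization, so which made the values is not settled. The deposited arrays had medians from 4.66 to 5.67 and were therefore quantile normalized here. After 64 control probe sets were left out, the 34945 probe sets with 1 gene symbol in the platform annotation were used (932 had several symbols, 9160 none). A probe set was kept if it exceeded the 30th percentile of all values (3.94) on any array, and kept probe sets were averaged per gene, which gave 16432 genes.

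One limma model (3.58.1, R 4.3.3; lmFit, eBayes, two-sided tests) held all 12 arrays: a term for each cell line as block and a separate OHT effect for mutant, mock and WT lines, leaving 3 residual degrees of freedom beside a prior of 2.79. Benjamini-Hochberg adjustment ran across the 16432 genes, and a gene was called at an adjusted p under 0.05. The 6 arrays before OHT were fitted by class alone. The OHT+ and OHT- arrays of a line pair because they are the same cell line; their deviations from the class means correlated at 0.27 in the WT lines and 0.36 to 0.43 in the mutant lines. No 2 arrays held the same values. *Rnf2* (Ring1B) and *Ring1* (Ring1A) cannot serve to check the labels, since the sources used here do not say whether their probe sets lie in the deleted exons. The fit was checked on simulated data. Precision is limited by the number of arrays.

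The collagen members and the gene lists were chosen with earlier results of these data known. Values in every array are given for each collagen gene called in any comparison and for those among the 5 largest changes of a comparison with an unadjusted p under 0.05. Of the other lists, up to 4 called genes are named per comparison, or up to 2 with the smallest p. Housekeeping genes gave 0 of 7 measured genes called. Alternatives were values as deposited, median-centred arrays, the brightest probe set per gene, other filters, no block, trended and robust priors, and each line left out. Promoter windows were counted for CpG and motifs in Python 3.11.15.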

Additional observations from a re-analysis of the deposited data

Results flagged for a closer look

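8 of 40 collagen genes (20%) moved one way in the I53A line and the other way in both I53S lines, as did 17.3% of all genes. In each case the difference was not tested, since I53A has 1 line. Of the 3 mutant lines, only I53A #1 was lower in OHT+ cells for 5 genes: *Col14a1* changed by -0.54, against 0.19 and 0.34 in I53S #1 and #4, *Col26a1* by -0.495, against 0.24 and 0.10, *Col6a1* by -0.20, against 0.41 and 0.60, *Col5a2* by -0.15, against 0.83 and 0.15, and *Col1a2* by -0.042, against 0.91 and 0.15. It alone of the mutant lines was higher for 3 genes: *Col7a1* changed by 0.68, against -0.07 and -0.09 in I53S #1 and #4, *Col19a1* by 0.43, against -0.16 and -0.02, and *Col15a1* by 0.38, against -0.52 and -0.06. No group had 4 or more samples, so no group was examined for outlying samples.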

How the results depend on the processing

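Of 412 values of single collagen genes under the alternatives, 367 kept their direction and their side of the threshold, 41 fell short of a threshold they had passed, 4 passed one they had missed and 0 changed direction. The number of collagen genes called in the mutant lines (7) was 2 with no replicate block for the line, and between 0 and 7 with 1 line left out. Of the mock line (1) it was 0 with the brightest probe set per gene and 0 with no replicate block. It was 2 with a filter on the mean signal, 6 with trended and robust priors, and 0 with any mutant line left out. For mock minus WT lines trended and robust priors gave 1 in place of 0. The cause of these shifts was not tested, except that the fits with a line left out have fewer arrays and the filter on the mean leaves 24 collagen genes. Medians of lists were compared per line and averaged over the lines of a class (mutants, mock or WT). On values as deposited the fibrillar median was 0.352 for mock and 0.065 for WT, the basement membrane median 0.076 for mutants and -0.151 for mock, the median of the other collagens 0.027 for mutants and -0.036 for mock, and the fibroblast marker median 0.229 for mock. The median of all genes was itself -0.340 for mock on these values. The mock medians of fibrillar, basement membrane and other collagens lay 0.692, 0.189 and 0.304 above it, against 0.717, 0.090 and 0.260 in the main fit. For the mutant lines the median of all genes lay between -0.175 and -0.073. With median-centred arrays the fibrillar median was 0.085 for WT, the basement membrane median 0.248 for mock, and the median of the other collagens 0.376 for mock and 0.052 for WT. With the brightest probe set the basement membrane median was 0.157 for mutants and -0.001 for mock, the median of the other collagens 0.327 for mock, the fibrillar median 0.194 and the fibroblast marker median 0.155 for WT. With no filter the basement membrane median was 0.183 for mock. With the filter on the mean it was 0.499 for mutants, 0.685 for mock and 0.167 for WT, and the median of the other collagens was 0.332 for mock. With trended and robust priors 13.5% of all genes were called for mutants and 8.15% for mock, and on values as deposited 571 of 1111 calls for mutants were lower. Signals near the filter value, such as those of *Col8a2* before OHT, leave the size of a change least certain.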
